A study of Mus musculus with 2 samples.

Results

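Sox proteins are transcription factors that share the HMG box, a DNA-binding domain first described in the male sex-determining factor SRY, and this report concerns 10 of their genes in the embryonic mouse heart. The members were taken by symbol: Sox4, Sox5, Sox6, Sox7, Sox8, Sox9, Sox11, Sox12, Sox17 and Sox18. Each matched 1 gene model, so that they make up 10 of 29383 genes in the count table. RNA sequencing was done on the heart apex of E12.5 embryos, and the apices of 8 hearts were pooled into 1 library for each genotype. The mutant (Ko) carried Nkx2-5cre and 2 floxed copies of Ezh2 (Ezh2f/f), and the heterozygous control (Het) carried Nkx2-5cre and 1 floxed copy (Ezh2f/+). Both groups thus share the Cre driver, which acts in the Nkx2-5 lineage, so that cells outside this lineage keep their floxed copies unrecombined. The question is how transcript levels respond when both copies of Ezh2, the catalytic subunit of the histone H3 lysine 27 methyltransferase PRC2, are open to recombination.

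Sox proteins bind the minor groove of DNA through the HMG box, bend it, and act with partner factors that differ between cell types. They are sorted into subgroups by the likeness of the box. SoxC factors (Sox4, Sox11, Sox12) act in progenitors and in the outflow tract, and SoxD factors (Sox5, Sox6) have a coiled coil and work beside Sox9 in cartilage. SoxE factors (Sox8, Sox9) act in cartilage, heart valve mesenchyme and neural crest, and SoxF factors (Sox7, Sox17, Sox18) in endothelium. Several Sox genes are known PRC2 targets in other cells.

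With 1 pooled library per genotype, no difference between Ko and Het has a replicate check and no p-value of genotype was computed. The libraries held 14122579 reads in Ko and 13944617 in Het. Levels are CPM, reads relative to a fixed library size, after TMM scaling, which sets the bulk of genes in both libraries to a common level. Intervals are at 95% and cover counting error alone; without molecular identifiers, PCR copies of a molecule count more than once. Ezh2 itself had 319 reads in Ko and 493 in Het, a Ko-to-Het ratio of 0.601 (0.521 to 0.694) over all exons, floxed or not. The labels call the cells cardiomyocytes and name no sort. All 9 cardiomyocyte markers listed were present, with a summed level of 27130.2 CPM in Ko and 26771.0 CPM in Het, and so were all 10 endothelial and endocardial markers, with 966.7 CPM in Ko and 1003.7 CPM in Het. In such bulk tissue, fewer cells of a type and less RNA per cell cannot be told apart.

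The HMG box is the domain that all members share, so its coding sequence bears on how well the counts separate them. The 30 bases that begin with the codons for arginine and proline at the start of the box are shown for Sox9, for its SoxE relative Sox8, for the abundant SoxC pair and for the SoxD member Sox5. They were read from GENCODE M21 transcripts, 5′ to 3′, with bases that differ from Sox9 in capitals.
Sox9: cgacccatgaacgccttcatggtgtgggcg
Sox8: cgGcccatgaaTgccttcatggtgtgggcA
Sox4: cgGcccatgaacgccttTatggtgtggTcg
Sox11: cgGcccatgaacgccttcatggtgtggTcC
Sox5: cgTccAatgaaTgccttcatggtgtgggcg
Over 210 bases from the same codon, Sox9 was 86.2% identical to Sox8, 77.6% to Sox7, 73.8% to Sox4 and 56.2% to Sox6. Identity was 78.1% to 91.0% in the 8 pairs of the same subgroup and 52.9% to 77.6% in the 37 pairs of different subgroups. The longest run shared by any 2 of the 10 transcripts was 48 bases, between Sox4 and Sox11, within the coding sequence of both and inside the box.
Run shared by Sox4 and Sox11: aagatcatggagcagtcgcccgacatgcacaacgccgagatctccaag
No pair of members from different subgroups shared more than 30 bases. For some pairs the longest run did not lie within the coding sequence of both genes, as for Sox7 and Sox11, with 29 bases. The sources used here give no read length, and reads that lie wholly inside such a run cannot be assigned to a single member.

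The members' levels spanned a wide range, and most differed little between genotypes. To compare genes, scaled CPM were divided by the length of each gene's longest protein-coding GENCODE M21 transcript. Sox4 was the most abundant, at 52.7 CPM per kb (51.0 to 54.5) in Ko and 54.1 (52.4 to 55.9) in Het. Next came Sox12, at 27.3 CPM per kb (26.1 to 28.6) in Ko and 24.6 (23.3 to 25.8) in Het. Both belong to SoxC, whose 3 genes held 6560 of the members' 7858 reads in Ko and 5940 of 7054 in Het.

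The middle of the order was formed by Sox18, Sox11, Sox7, Sox9 and Sox6. The endothelial factor gene Sox18 had 11.0 CPM per kb (9.72 to 12.4) in Ko and 10.8 (9.44 to 12.2) in Het, and Sox11, the third SoxC member, had 9.16 (8.63 to 9.71) in Ko and 8.45 (7.92 to 9.0) in Het. Sox7, the other abundant SoxF gene, had 7.31 CPM per kb (6.56 to 8.11) in Ko and 7.82 (7.02 to 8.69) in Het. The intervals of Sox11 and Sox7 did not overlap in Ko but did in Het, so their order is not resolved in Het. Sox9, the regulator of cartilage and valve mesenchyme, had 4.85 CPM per kb (4.31 to 5.44) in Ko and 3.07 (2.63 to 3.57) in Het, while Sox6 had 2.44 (2.18 to 2.73) in Ko and 2.34 (2.07 to 2.63) in Het. Sox9 was thus clear of Sox6 in Ko, whereas in Het the intervals of the pair met.

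At the low end were Sox17, Sox5 and Sox8. Sox17, a SoxF gene of endoderm and endothelium, had 0.869 CPM per kb in Ko and 0.866 in Het, Sox5 had 0.379 in Ko and 0.398 in Het, and Sox8 had 0.137 in Ko and 0.148 in Het. By transcript length, the order of the 10 genes was the same in both libraries. It depends on the lengths used, since the deposited gene model of Sox4 spans 2953 bases against a transcript of 4795. With the span of the model as length, Sox4 had 85.6 CPM per kb in Ko and 87.9 in Het, and Sox11 had 10.2 in Ko and 9.37 in Het. The order of the point values then differed between the libraries. By span, Sox11 was above Sox18 in Ko, where Sox18 had 9.90, and below it in Het, where Sox18 had 9.67. Sox9 had 3.63 in Ko and 2.30 in Het, against 3.43 in Ko and 3.67 in Het for Sox7, so that Sox9 was the higher of the pair in Ko alone. No intervals were computed for levels by span, so whether these orders exceed counting error was not assessed. A span can also take in introns and is then no transcript length, as for Sox7, with 7027 bases against a transcript of 3299.

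**Figure D1:**
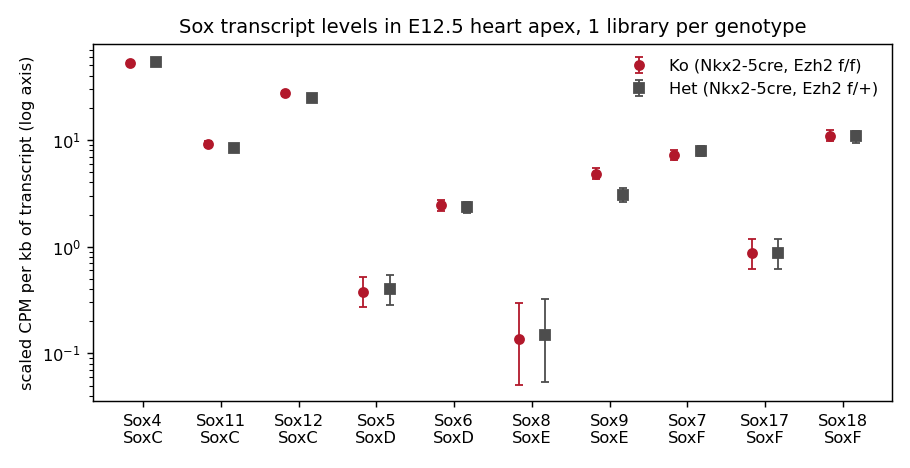
Scaled CPM per kb of transcript (log axis) of the 10 Sox genes, with Ko as circles left of Het as squares and bars for the 95% interval of counting error; there is 1 library per genotype. Sox4 lies highest, at 52.7 in Ko and 54.1 in Het, and the intervals of Ko and Het are apart for Sox9 and Sox12 but overlap for the other 8 genes.

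Sox9 stood out among the members. It had 292 reads in Ko and 172 in Het, or 20.1 CPM in Ko and 12.7 CPM in Het, a ratio of 1.58 (1.30 to 1.92). The gene lies on chromosome 11 from 112643538 to 112649063, in the files' own coordinates. On the scale used for counting genes, log2((Ko CPM + 1)/(Het CPM + 1)), its value was 0.62, which placed it at percentile 97.1 of the 16185 genes that reached 1 CPM in either library. Sox9 was the only member at least 1.5-fold higher on that scale. Of all genes counted, 559 (3.45%) were higher by this rule and 305 (1.88%) were lower in Ko by 1.5-fold or more, and under library-total scaling these counts were 788 and 190. No member was at least 1.5-fold lower, and none was 2-fold apart, which held for 0.605% of all genes in the higher and 0.173% in the lower direction. The call on Sox9 depends on the pseudocount: with 5 CPM added its log2 ratio was 0.50, under the 1.5-fold line with 121 genes of the table past it. Its relative Sox8 had 6 reads in each library, under 1 CPM, with a ratio of 0.929 (0.248 to 3.48) that leaves a difference as large as that of Sox9 undetectable at this depth.

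**Figure D2:**
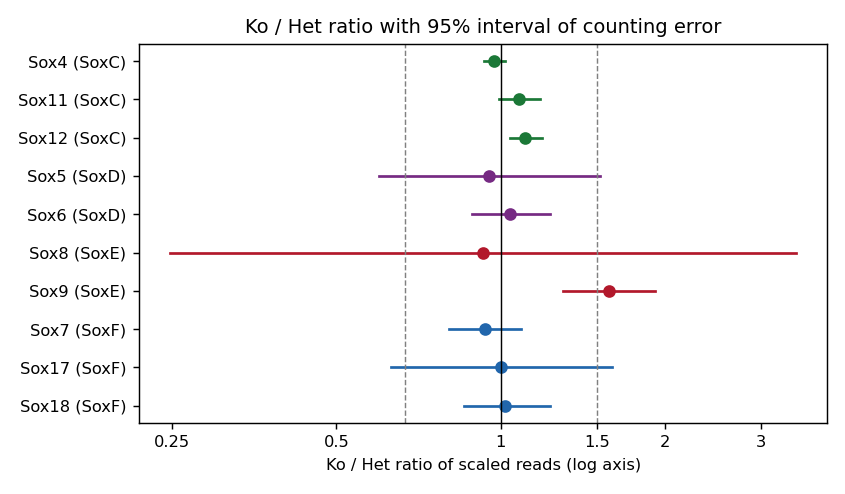
Ko-to-Het ratio of scaled reads (log axis) for each Sox gene, coloured by subgroup, with the 95% interval of counting error; dashed lines mark 1.5-fold. Sox9, at 1.58, is the only point past the line, and the intervals of Sox9 and Sox12 alone exclude 1.

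Set against each other member by its own reads, the ratio of Sox9 was 1.42 times that of Sox12 (1.16 to 1.74, exact conditional interval) and 1.69 times that of Sox7 (1.32 to 2.16). The interval excluded 1 for 6 of 9 such comparisons, with Sox4, Sox6, Sox7, Sox11, Sox12 and Sox18. It included 1 for Sox5 (0.994 to 2.75), Sox17 (0.944 to 2.61) and Sox8 (0.446 to 6.45), which had few reads. These intervals describe 2 libraries and not the spread between hearts. Sox9 was set against the others as the member with the largest ratio in these same reads. The intervals make no allowance for that choice and give no independent support that Sox9 differs. In reads, Sox9 made up 3.72% of the members' total in Ko (Wilson 95% interval 3.32 to 4.16) and 2.44% in Het (2.10 to 2.82). Without Sox9 the summed level of the other 9 genes was 519.7 CPM in Ko and 508.7 CPM in Het, a ratio of 1.02 (0.989 to 1.06).

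SoxC genes lay close to equal levels. Sox4, a factor needed for outflow tract septation in mice, had 3681 reads in Ko and 3511 in Het, a ratio of 0.974 (0.930 to 1.02), with a log2 ratio of -0.04 that was 0.05 under library-total scaling. Sox11, which acts with Sox4 in progenitor cells, had 1108 reads in Ko and 950 in Het, with a ratio of 1.08 (0.993 to 1.18). Sox12, the third of the subgroup, had 1771 reads in Ko and 1479 in Het, and its ratio of 1.11 (1.04 to 1.19) had an interval above 1. That was so for 17.4% of all genes, against 2 of the 9 members at or above 1 CPM, Sox9 and Sox12. The interval lay below 1 for 19.1% of all genes and for 0 of the 9. The authors' deposited table, whose ratio runs the other way as Het over Ko and uses library totals, gives 0.597 for Sox9 with p = 4.78e-08, 0.846 for Sox12 with p = 1.90e-06 and 0.868 for Sox11 with p = 0.00139. The test behind these p-values is not named, and with 1 library per genotype they compare libraries and not genotypes.

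SoxD and SoxF genes showed no difference beyond counting error. Sox6, a repressor of slow muscle genes and embryonic globins in mice, had 308 reads in Ko and 274 in Het (ratio 1.04, 0.885 to 1.23). Sox5 had 40 reads in Ko and 39 in Het (ratio 0.953, 0.598 to 1.52). A second model named mSox5L overlaps Sox5 on chromosome 6, with 28 reads in Ko and 27 in Het, and can hold some of the same reads. Among SoxF genes, which act redundantly in vessel formation, Sox7 had 351 reads in Ko and 349 in Het (ratio 0.935, 0.804 to 1.09). Sox17 had 41 reads in Ko and 38 in Het (ratio 1.0, 0.629 to 1.60), and Sox18, whose mutation in mice disturbs lymphatic vessels, had 260 in Ko and 236 in Het (ratio 1.02, 0.855 to 1.23). The balance within SoxF was also alike: Sox7 took 53.8% of the subgroup's reads in Ko (50.0 to 57.6) and 56.0% in Het (52.1 to 59.9), Sox18 39.9% in Ko (36.2 to 43.7) and 37.9% in Het (34.2 to 41.8). For Sox5 and Sox17, the intervals reach past 1.5-fold, so that a difference of that size cannot be seen at their depth.

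Across the 9 members with at least 1 CPM, all of which reached that level in both libraries, the median log2 ratio was 0.03, against -0.01 over all 16185 genes. Values above 0 were seen for 6 of 9 members and 48.8% of all genes. Members other than Sox9 lay between percentile 36.1 (Sox7) and percentile 72.5 (Sox12).

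**Figure D3:**
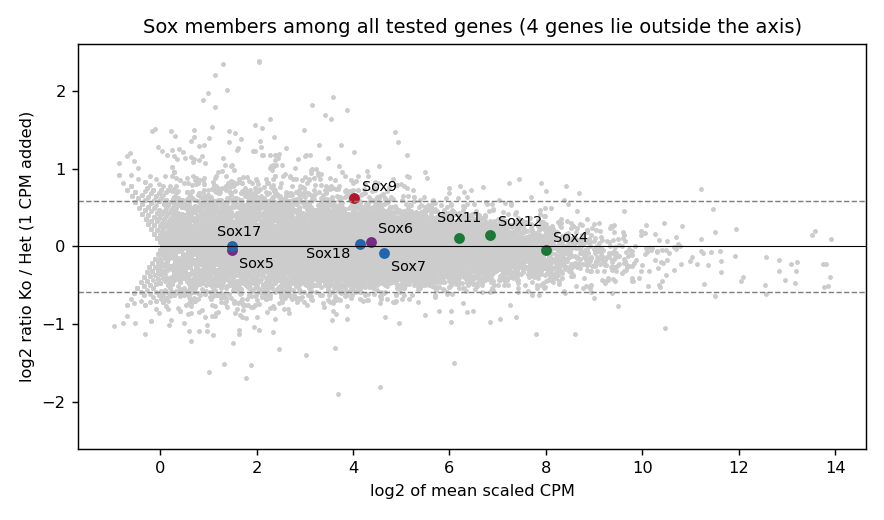
Log2 ratio of Ko to Het with 1 CPM added, against log2 of the mean scaled CPM, for genes that reached 1 CPM in either library (grey) and the 9 Sox members among them (coloured by subgroup); dashed lines mark 1.5-fold. Sox9 lies at 0.62, above the line, and the other 8 members lie between -0.09 and 0.15.

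In these libraries log2 ratios were higher for transcripts rich in GC, with a Spearman rho of 0.44 across 10265 genes, which are not independent replicates. Sox transcripts ranged from 44.8% GC in Sox5 to 60.9% in Sox18, so the trend touches them unequally. At the GC content and length of Sox9, which was 49.3% GC, the fitted trend was 0.01, and its log2 ratio was 0.61 once the trend was removed. At those of Sox12, with 59.9% GC, the trend was 0.25, and its log2 ratio was -0.10 after removal. The number of members above 0 was then 3 of 9, these being Sox6, Sox9 and Sox11. The members' median was -0.05, against -0.0 over all genes with a GC value. The share of all genes above 0 was not computed after removal. After removal Sox18 was at -0.12, Sox7 at -0.12 and Sox4 at -0.10.

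**Figure D4:**
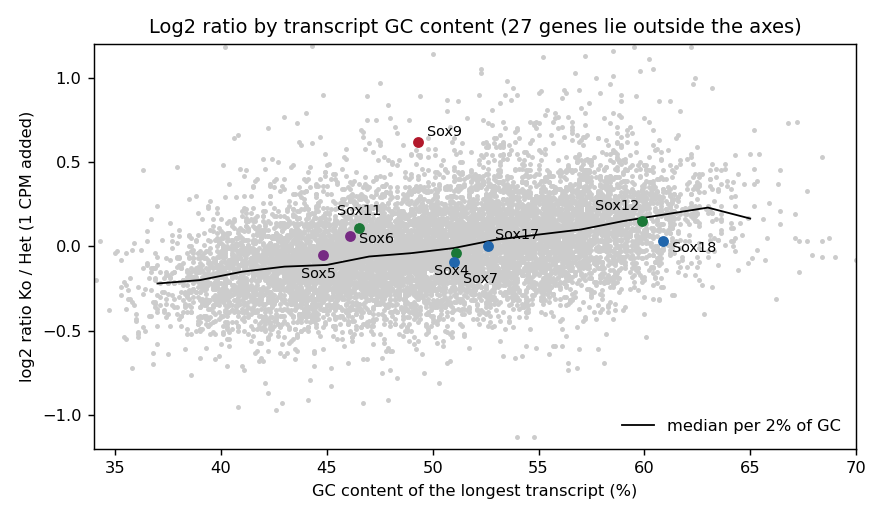
Log2 ratio of Ko to Het with 1 CPM added, against the GC content of the longest transcript in percent, for genes that average 5 CPM or more (grey); the black line is the median in steps of 2% GC, and the 9 Sox members at or above 1 CPM are coloured by subgroup. Sox9 lies far above the line at 49.3% GC, while Sox12 at 59.9% GC lies near it.

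Genes of cartilage matrix and valve mesenchyme, listed as bound or regulated by Sox5, Sox6 or Sox9, included several that were higher in Ko. Whether Sox9 acts on them in this tissue was not tested. Of 21 genes on this list, 16 had at least 1 CPM, each in both libraries. Of these, 5 were higher in Ko by 1.5-fold or more, beside 3.45% of all genes, and 0 were lower by as much, beside 1.88%, and 12 of 16 were above 0. The list's median log2 ratio was 0.29 (0.17 once the GC trend was taken out), against -0.01 over all genes. This list was chosen with earlier results of these data known, so its counts are a description and not a test. With 5 CPM added the median was 0.15, and the calls on Col9a1 (0.36), Col9a3 (0.42) and Twist1 (0.42) ended, while Col2a1 (0.80) and Msx2 (0.82) were still past the 1.5-fold line. Col2a1, which encodes the main collagen of cartilage, had 170 reads in Ko and 62 in Het (ratio 2.55, 1.89 to 3.47). The type IX collagen genes Col9a1 and Col9a3 were higher too. Col9a1 had 51 reads in Ko and 22 in Het (ratio 2.15, 1.28 to 3.73), and Col9a3 had 53 in Ko and 20 in Het (ratio 2.46, 1.45 to 4.35). The third chain gene of the same collagen, Col9a2, differed from them, with 103 reads in Ko and 115 in Het (ratio 0.832, 0.632 to 1.10).

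Other cartilage matrix genes of the list lay nearer to 1. Hapln1, which encodes a link protein of hyaluronan and aggrecan, had 375 reads in Ko and 301 in Het (ratio 1.16, 0.992 to 1.35), and Col11a1 had 263 in Ko and 215 in Het (ratio 1.14, 0.946 to 1.37). Col27a1, a fibrillar collagen gene of cartilage, had 180 in Ko and 129 in Het (ratio 1.30, 1.03 to 1.64), with a log2 ratio of 0.34 that was 0.05 once the GC trend was taken out. Comp, another cartilage matrix gene, had a ratio of 0.989 (0.587 to 1.67). Acan, the aggrecan gene and a textbook Sox9 target, had 7 reads in Ko and 3 in Het, and Matn1, Matn3, Matn4 and Lect1 were under 1 CPM as well. Over the 14 matrix genes together the summed level was 87.8 CPM in Ko and 68.0 CPM in Het, a ratio of 1.29 (1.18 to 1.41).

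The remaining 7 genes of the list belong to valve and cushion mesenchyme, and they went both ways. Their summed level was 653.4 CPM in Ko and 741.0 CPM in Het, a ratio of 0.882 (0.857 to 0.907). Over all 21 genes the sum was 741.2 CPM in Ko and 809.0 CPM in Het, a ratio of 0.916 (0.892 to 0.941). Most of both sums came from Vcan (517.5 CPM in Ko, 601.2 in Het) and Postn (105.9 in Ko, 120.0 in Het). By gene, 5 of the 7 had a log2 ratio above 0, with a median of 0.27. The homeobox gene Msx2 had 101 reads in Ko and 24 in Het (ratio 3.91, 2.49 to 6.38). Twist1, a regulator of mesenchyme named because the count of 5 is small, had 97 in Ko and 50 in Het (ratio 1.80, 1.27 to 2.59). Postn and Vcan, abundant matrix genes of cushion mesenchyme, were on the other side of 1, with ratios of 0.883 (0.823 to 0.947) and 0.861 (0.834 to 0.888). The 5 listed markers of cushion mesenchyme, Postn, Vcan, Col1a1, Col3a1 and Twist1, summed to 1372.8 CPM in Ko and 1445.4 CPM in Het, a ratio of 0.950 (0.931 to 0.969), with 3 of 5 above 0. The part of cushion mesenchyme cells in the value of Sox9 was not tested. The 4 epicardial markers summed to 162.5 CPM in Ko and 158.1 CPM in Het (ratio 1.03, 0.969 to 1.09). Among neural crest markers, Foxd3 had no read in either library, and Sox10 had 3 reads in Ko and 0 in Het. On the longer lists, 0 of 5 neural crest and Schwann cell genes with at least 1 CPM and 0 of 10 epicardial and mesenchymal genes were 1.5-fold apart, with median log2 ratios of -0.10 and 0.05. The most abundant of the neural crest list, Ednrb and Ets1, which endothelium also uses, had ratios of 0.890 (0.847 to 0.934) and 0.933 (0.864 to 1.01). Col1a1 and Col3a1, the main fibrillar collagen genes of mesenchyme, had ratios of 1.03 (0.991 to 1.07) and 1.03 (0.992 to 1.08). Of 11 cardiomyocyte genes, 1 was 1.5-fold higher, the atrial light chain gene Myl7 at 1.67 (1.64 to 1.70), and 1 was lower, the calcium pump inhibitor gene Pln at 0.591 (0.574 to 0.608), whose log2 ratio of -0.76 was -0.49, under the 1.5-fold line, once the GC trend was taken out. In lists this short, such counts cannot be told apart from the shares over all genes. The 5 leukocyte markers summed to 29.1 CPM in Ko and 36.6 CPM in Het, with 2 of 5 above 0. The lysozyme gene Lyzs had a ratio of 0.553 (0.433 to 0.705), while Cd68 went the other way, at 1.60 (1.07 to 2.43).

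**Figure D5:**
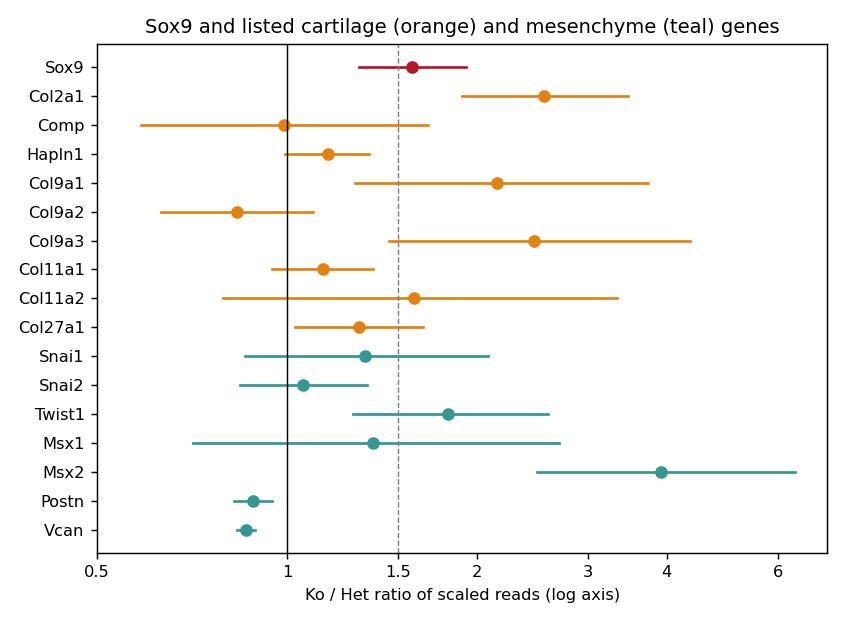
Ko-to-Het ratio of scaled reads (log axis) with the 95% interval of counting error for Sox9 (red) and for the 16 listed genes with at least 1 CPM, cartilage matrix genes in orange and valve and mesenchyme genes in teal; the dashed line marks 1.5-fold. Col2a1 (2.55), Col9a1 (2.15), Col9a3 (2.46), Twist1 (1.80), Msx2 (3.91) and Col27a1 (1.30) have intervals above 1, while those of Postn and Vcan lie below it.

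Genes of endothelium and endocardium, where SoxF factors act, were counted by the same rule. Of 25 listed genes, 0 were higher in Ko by 1.5-fold or more and 1 was lower by as much, which is near the shares of 3.45% and 1.88% over all genes. That gene was Robo4, a receptor of endothelium, with 130 reads in Ko and 190 in Het (ratio 0.636, 0.505 to 0.799); its log2 ratio of -0.60 was under the 1.5-fold line with 5 CPM added (-0.45) and under library-total scaling (-0.52). The list's median log2 ratio was -0.07. SoxF genes together had 44.8 CPM in Ko and 46.1 CPM in Het, a ratio of 0.972 (0.870 to 1.09), and the 10 endothelial and endocardial markers had a ratio of 0.963 (0.941 to 0.986), with 3 of 10 above 0. The 4 lymphatic markers, named here because Sox18 acts in that lineage, summed to 139.1 CPM in Ko and 132.0 CPM in Het (ratio 1.05, 0.989 to 1.12).

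Genes that Sox6 represses in mice, slow muscle genes and embryonic globins, went both ways. None of 9 was at least 1.5-fold apart, a count that the shares over all genes, 3.45% higher and 1.88% lower, do not set apart from other genes, and their median log2 ratio was -0.19, or -0.02 after removal of the GC trend. Myh7, the slow myosin heavy chain gene, had a ratio of 1.15 (1.14 to 1.16), and Myl2, the slow and ventricular light chain gene, 0.858 (0.852 to 0.863). The embryonic globin gene Hbb-y had a ratio of 0.719 (0.708 to 0.730), and erythroid markers as a whole were at 0.717 (0.707 to 0.728), with 2115.0 CPM in Ko and 2948.0 CPM in Het over 3 genes, of which Hbb-y is one. Alas2, an enzyme gene of heme synthesis in red cells, was at 0.630 (0.566 to 0.701). The part of erythroid cells in the value of Hbb-y was not tested.

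Neuronal genes that Sox4 and Sox11 act on in neurons had a median log2 ratio of -0.01 over the 9 of 10 with at least 1 CPM, which Tubb3 reached in Ko alone. The neurofilament gene Nefl was the only one at least 1.5-fold apart, with 67 reads in Ko and 35 in Het (ratio 1.78, 1.16 to 2.76). That call ended with 5 CPM added (log2 ratio 0.34). In a list this short, 1 such gene cannot be told apart from the shares over all genes, 3.45% higher and 1.88% lower. Tead2, a direct Sox4 and Sox11 target, had a ratio of 0.995 (0.929 to 1.07). Stmn1, a microtubule regulator of dividing cells, was at 0.796 (0.748 to 0.848).

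Lef1, Tcf7 and Tcf7l2 encode Wnt effectors that bind beta-catenin, a protein that Sox factors also contact. These effectors belong to the same superfamily of HMG box proteins as the Sox factors. The list of Wnt genes is wider and also holds Ctnnb1, Axin2 and Nkd1. Of the 6 listed genes with at least 1 CPM, 2 were at least 2-fold higher, beside 0.605% of all genes. Lef1 had 95 reads in Ko and 26 in Het (ratio 3.40, 2.18 to 5.46), and Tcf7 had 109 in Ko and 42 in Het (ratio 2.41, 1.67 to 3.53). With 5 CPM added, the log2 ratios of Lef1 and Tcf7 were 0.74 and 0.62, past 1.5-fold but under 2-fold. Their relative Tcf7l2 had 487 reads in Ko and 411 in Het (ratio 1.10, 0.964 to 1.26), and Ctnnb1, the beta-catenin gene, had a ratio of 0.943 (0.910 to 0.978). The median over the 6 was 0.30 (0.23 once the GC trend was taken out). As with the cartilage list, these genes were chosen with earlier results of these data known, so the counts are no test.

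Of 8 other Sox genes found in the table, Sox13 and Sox3 reached 1 CPM and 6 did not. Sox13, the third SoxD gene, had 178 reads in Ko and 191 in Het, or 12.2 CPM in Ko and 14.1 CPM in Het (ratio 0.866, 0.702 to 1.07), and a model named sox-13 overlaps it. Sox3, a SoxB gene of neural progenitors, had 98 reads in Ko and 82 in Het, or 6.73 CPM in Ko and 6.06 CPM in Het (ratio 1.11, 0.820 to 1.51). Sox2, a factor of pluripotent and neural cells, had 4 reads in Ko and 0 in Het. Sox1 and Sox21 were without a read in Ko and in Het, a result that allows up to 3 reads in each. Sox15 and Sox30 had at most 8 reads in a library.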

How the data were processed

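RNA of 8 pooled heart apices per genotype was sequenced, with 1 library each for Ko and Het, from total RNA and a full-length library kit, per the labels' protocols. The deposited table gives whole-number read counts per gene model, CPM (reads scaled to a common library total), a Het-over-Ko ratio and a p-value, per the file headers. For aligner, counter, strand and genome build, nothing is stated (not given in the sources used here). Positions are the files' own, with 1 added to the start. Rows of 1 symbol were summed. Counts were scaled with TMM in edgeR 4.0.16 under R 4.3.3, with factors of 1.031 for Ko and 0.970 for Het. Ratios have exact conditional Poisson intervals (SciPy 1.17.1), which were checked on simulated counts. The log2 ratio adds 1 CPM; genes that reached 1 CPM in either library were counted at 1.5-fold and 2-fold. Where GC content was used, a second-order trend in GC content and log10 length was fitted over genes that average 5 CPM or more; 12445 of 16185 genes (76.9%) and all 10 members had a value, 1953 of them through a synonym, and gene models named by an mRNA accession had none. Members and lists were chosen with earlier results of these data known. All members are described; from each gene list up to 4 genes at least 1.5-fold apart with the largest log2 ratio are named, or else the 2 with the highest mean, and other genes named were chosen after their values were seen. Of list names, Sox14, Tcf7l1 and Hba-a1 were not matched to a single row. Alternatives were other scalings (upper quartile, library total, size factors of DESeq2 1.42.0), pseudocounts and filters. Marker lists are given by their sums, and listed genes that are not named enter only counts, medians and sums; 1 result of a marker gene is not reported here.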

Additional observations from a re-analysis of the deposited data

How the results depend on the processing

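With 1 library per genotype, no replicate could be left out, and low counts limit what can be seen of Sox5, Sox17 (at most 41 reads in a library) and Sox8 (6 reads). No paired analysis was possible because each genotype has 1 library. The log2 ratio of Sox9 ranged from 0.50 to 0.70 over the 10 alternatives. Other filters, or keeping only the row with most reads per symbol, could not change it from 0.62, since Sox9 has 1 row and passes each filter. No pseudocount can change its sign. The number of members at least 1.5-fold higher was 1 in each alternative except a pseudocount of 5 CPM, where it was 0. Library-total scaling put Sox4 at 0.05, the list of genes repressed by Sox6 at -0.10 and the cardiomyocyte list, whose median was 0.14, at 0.23; it shifts all ratios alike, with a median over all genes of 0.07. Removal of the GC and length trend put Sox12 at -0.10, the list of genes repressed by Sox6 at -0.02, the cardiomyocyte list at -0.10 and the number of members above 0 at 3, against 6 with TMM and 8 under library-total scaling. Over all genes, 559 were at least 1.5-fold higher and 305 lower. These counts were 993 and 573 with 0.1 CPM added, 121 and 50 with 5 CPM, 1051 and 629 with none, 234 and 132 at a mean of 5 CPM or more, and 331 and 143 without the trend, among the 12445 genes with a GC value.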

Other observations

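The nearest gene models on either side of each Sox gene that carry a symbol and have at least 1 CPM, 19 in all, were looked up after the members' values had been seen. Their median log2 ratio was -0.06, with 2 past 1.5-fold above and 2 past it below. Over all genes the shares were 3.45% higher and 1.88% lower. Counts this small are a description and not a test. The neighbours of Sox9 lay far from it: Kcnj2, a potassium channel gene 1706.6 kb away, had 276 reads in Ko and 235 in Het (ratio 1.09, 0.914 to 1.30), and Slc39a11, a zinc transporter gene 457.1 kb away on the other side, had 195 in Ko and 207 in Het (ratio 0.875, 0.716 to 1.07). Beside Sox12, Nrsn2, which encodes the neuronal vesicle protein neurensin, had 53 reads in Ko and 25 in Het (ratio 1.97, 1.20 to 3.31). The T-type calcium channel gene Cacna1h, 132.1 kb from the barely detected Sox8, had 1911 reads in Ko and 1045 in Het (ratio 1.70, 1.57 to 1.83). Its log2 ratio was 0.76, and 0.45 after removal of the GC trend. Insc, a gene of spindle orientation 621.1 kb from Sox6, had 9 reads in Ko and 33 in Het, a Het-to-Ko ratio of 3.95 (1.85 to 9.38). Tyki, 855.4 kb from Sox11, had 14 reads in Ko and 29 in Het, a Het-to-Ko ratio of 2.23 (1.14 to 4.57). With 5 CPM added, Nrsn2 (log2 ratio 0.34), Insc (-0.41) and Tyki (-0.26) were under the 1.5-fold line.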
